A study of Mus musculus with 6 samples.

Results

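Voltage-gated sodium channels and an HCN channel were followed across RNA-seq libraries of the anterior cingulate cortex, which lies along the midline of the mouse frontal lobe. The members were the rows of the deposited count table with the symbols Scn1a, Scn2a, Scn3a and Scn8a (pore-forming alpha subunits), Scn2b, Scn3b and Scn4b (beta subunits) and Hcn2 (an HCN channel), which is 8 of 45777 genes. All 8 had enough counts to be among the 19227 genes tested. The libraries came from BALB/c mice, an inbred strain: 3 from mice given social defeat stress over 5 days (repeated losing encounters with an aggressive mouse) and 3 from non-stress mice. The sources used here do not give age or sex, or say whether each library is a separate animal, so p-values measure the spread between these libraries only, which may be technical.

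A sodium channel consists of an alpha subunit, which forms the pore and opens on depolarisation to start the action potential, and beta subunits, small membrane proteins with an immunoglobulin-like domain that tune gating, surface levels and adhesion. Scn2b and Scn4b encode the beta subunits that are joined to the alpha subunit by a disulphide bond, while the product of Scn3b attaches without one. HCN channels open on hyperpolarisation, pass an inward current that sets resting potential and rhythmic firing, and bind cyclic AMP directly, which eases their opening.

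The genes lie on 4 chromosomes. Scn3a (65457118 to 65567591, GRCm38), Scn2a (65620764 to 65767447) and Scn1a (66270781 to 66440837) are in a cluster on chromosome 2. Scn3b (40269216 to 40291618), Scn2b (45117876 to 45130070) and Scn4b (45138624 to 45154155) are on chromosome 9, where Scn2b and Scn4b lie in the same orientation with 8553 bases between them. Scn8a is on chromosome 15 (100869863 to 101045938) and Hcn2 on chromosome 10 (79716634 to 79736108). No exon of the 8 genes overlapped an exon of another gene in the GENCODE M21 annotation.

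Promoter windows from RefSeq (GRCm38.p6) were found for 6 of the 8 members. The 250 bases before the start are shown for the 3 members of lowest fold change, of which the first 2 are the chromosome 9 neighbours; capitals mark CG dinucleotides. The windows are chr9:45117626-45117875 (plus strand) for Scn2b, chr9:45138374-45138623 (plus strand) for Scn4b and chr10:79716384-79716633 (plus strand) for Hcn2.
Scn2b: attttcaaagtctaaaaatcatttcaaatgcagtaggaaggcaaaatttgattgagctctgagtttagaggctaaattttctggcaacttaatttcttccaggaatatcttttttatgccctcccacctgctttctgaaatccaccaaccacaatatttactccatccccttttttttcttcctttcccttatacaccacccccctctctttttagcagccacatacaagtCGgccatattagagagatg
Scn4b: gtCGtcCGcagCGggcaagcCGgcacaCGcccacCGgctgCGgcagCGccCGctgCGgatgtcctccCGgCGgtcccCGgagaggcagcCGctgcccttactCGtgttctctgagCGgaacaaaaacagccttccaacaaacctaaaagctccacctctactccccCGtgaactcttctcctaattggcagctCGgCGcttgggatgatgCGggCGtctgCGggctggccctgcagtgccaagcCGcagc
Hcn2: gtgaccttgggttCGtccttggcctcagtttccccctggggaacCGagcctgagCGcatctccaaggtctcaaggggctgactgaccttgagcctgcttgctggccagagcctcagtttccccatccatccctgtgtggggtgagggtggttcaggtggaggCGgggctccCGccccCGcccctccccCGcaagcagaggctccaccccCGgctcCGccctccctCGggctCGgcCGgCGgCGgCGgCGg

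The Scn2b window held 1 CG dinucleotide and 38.4% G and C, and the Scn4b window, downstream of it, held 23 and 66.0%. Among all 32851 such windows the median was 6 CG dinucleotides and 52.4% G and C. The Hcn2 window held 16, with 70.4% G and C. Both strands were searched for the TATA box (TATAAA), found in 12.4% of all windows, the GC box (GGGCGG, 32.7%), the E-box (CACGTG, 6.02%), the cyclic AMP response element (TGACGTCA, 1.55%) and the core that is part of it (TGACG, 17.8%). Scn2b and Scn4b had no match, and Hcn2 held GGGCGG 3 times on the opposite strand, 80, 74 and 36 bases before the start, the matches at 80 and 74 touching end to end.

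Before the results, the libraries themselves need describing. Counts summed to between 41623899 and 47212982 per library. On principal component 1 of log2 CPM (CPM being each library's counts scaled to the same total), which held 34.5% of the variance, the stress libraries lay at -20.4 to -14.9 and non-stress 1 beside them at -11.7, while non-stress 2 and 3 lay at 37.4 and 27.4. The labels name no batch. Results are also given below without non-stress 2 and 3, that is, against non-stress 1 alone. Excitatory neuron markers were abundant in every library, with Slc17a7, the vesicular glutamate transporter, at 1131 to 1156 CPM in stress and 1122 to 1288 CPM in non-stress.

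The comparison of stress with non-stress libraries asks whether repeated defeat is accompanied by altered channel expression. By edgeR's quasi-likelihood test, with p adjusted over all genes by the Benjamini-Hochberg method and a threshold of 0.05, 0 of the 8 members and 0.0052% of all tested genes (1 gene) passed. An unadjusted p under 0.05 was reached by 5 of the 8 members, 4 lower and 1 higher in stress, against 12.1% of all tested genes (6.27% lower and 5.8% higher). In the same 5 members the groups did not overlap, with Scn8a, Scn2b, Scn4b and Hcn2 lower and Scn3b higher in every stress library. That held for 17.9% of all tested genes (9.43% lower and 8.43% higher). DESeq2 called 2 members and 1.05% of the genes to which it gave an adjusted p, limma-voom 0 members and 0.0104% of genes, and edgeR without non-stress 1 called 4 members and 3.85% of genes. The members were chosen with earlier results of these data known, so these counts describe them and are no test. In bulk tissue, fewer cells of a type and less RNA per cell cannot be told apart.

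**Figure D1:**
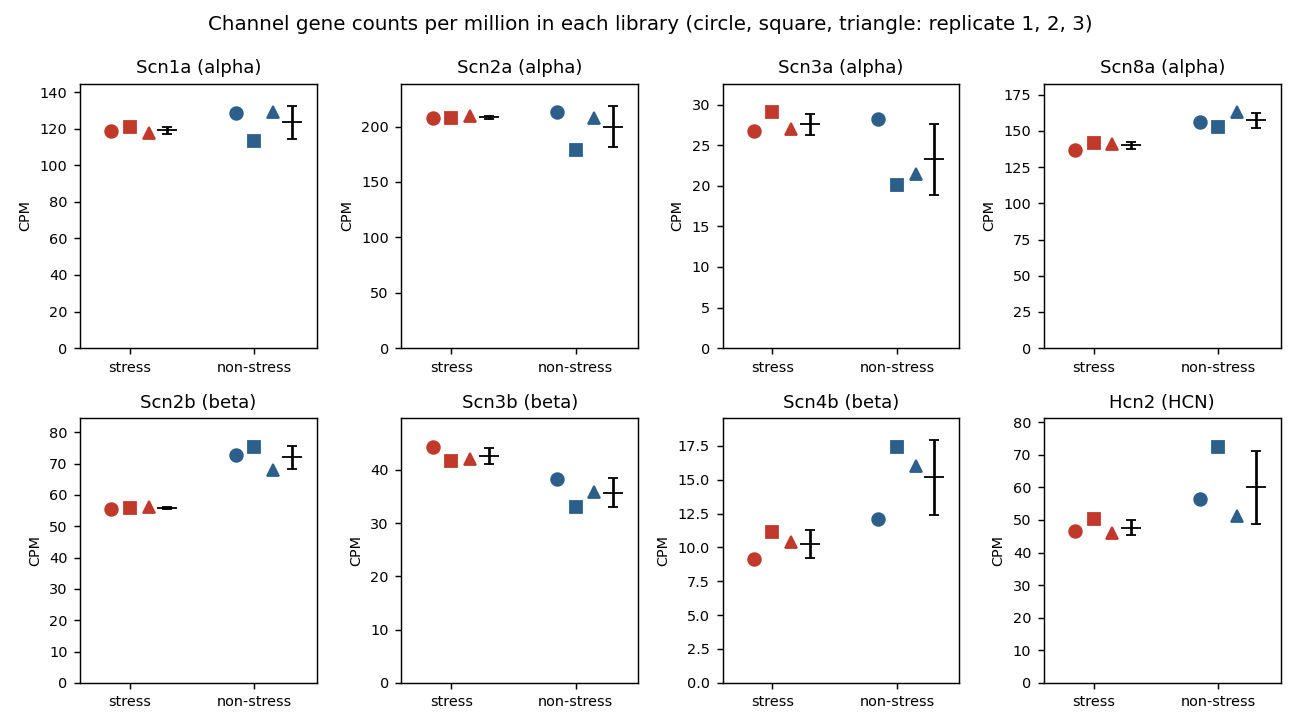
CPM of each channel gene (y axis, from 0) in the 3 stress libraries (red) and 3 non-stress libraries (blue), with replicates 1, 2 and 3 as circle, square and triangle and the black bar showing mean ± SD. Scn2b, Scn4b, Scn8a and Hcn2 are lower and Scn3b higher in all stress libraries, and non-stress 1 (blue circle) is nearest to the stress values for Scn3b and Scn4b.

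Among beta subunits, Scn2b, whose product is joined to the pore subunit, had the smallest p of the 8 members. It stood at 55.5, 55.9 and 56.1 CPM in stress replicates 1, 2 and 3, and at 72.7, 75.4 and 68.0 CPM in the non-stress replicates. The stress values lay within 1 CPM of each other, and all were below the lowest non-stress value. Its mean was 55.8 ± 0.306 CPM in stress and 72.0 ± 3.76 CPM in non-stress (SD, n = 3 each), 1.29-fold lower in stress. The log2 fold change of -0.37 (SE 0.05, 95% interval -0.48 to -0.25) had an edgeR adjusted p = 0.135 and ranked 7 of 19227 genes by p. DESeq2 called Scn2b (adjusted p = 1.61e-05). Without non-stress 1 the edgeR adjusted p was 0.00727, and with non-stress 1 as the single non-stress library it was 0.0118, at log2 fold changes of -0.36 and -0.37.

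Scn4b encodes the other disulphide-linked beta subunit, known for its part in resurgent sodium current, and is abundant in striatum. It had 9.13, 11.2 and 10.4 CPM in stress and 12.1, 17.4 and 16.0 CPM in non-stress. Groups did not overlap, but non-stress 1 lay nearer to stress replicate 2 than to the other non-stress libraries. On the log2 scale the fold change was -0.57 (SE 0.14, 95% interval -0.87 to -0.27, edgeR adjusted p = 0.344), 1.48-fold lower in stress. DESeq2 called it (adjusted p = 0.0120), and so did edgeR without non-stress 1 (log2 fold change -0.71, adjusted p = 0.00302). Set against non-stress 1 alone the log2 fold change was -0.24 (adjusted p = 0.552).

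Scn3b, whose product attaches without a disulphide bond and is known to be prominent in the developing brain, lay in the opposite direction. It had 44.3, 41.7 and 42.0 CPM in stress and 38.3, 33.0 and 35.8 CPM in non-stress. All 3 stress libraries were above all 3 non-stress libraries, with non-stress 1 the closest. Its log2 fold change was 0.26 (SE 0.06, 95% interval 0.11 to 0.40, edgeR adjusted p = 0.344; DESeq2 adjusted p = 0.0559). It passed without non-stress 1 (0.31, adjusted p = 0.0243), and was 0.16 (adjusted p = 0.406) against non-stress 1 alone.

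The balance of Scn3b to Scn2b was compared within each library. The ratio of Scn3b to Scn2b, each as CPM per kb of the longest annotated transcript, was 0.897, 0.836 and 0.839 in stress and 0.592, 0.490 and 0.591 in non-stress. Every stress ratio was above every non-stress ratio, non-stress 1 included. This had to follow, since Scn3b was higher and Scn2b lower in every stress library, so the separation is no further result. A ratio inside a library does not change with the scaling between libraries; no p is given because the pair was chosen after its values were seen.

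Among alpha subunits, Scn8a, the main sodium channel of the mature axon initial segment and nodes of Ranvier, was the member whose groups did not overlap. It had 137, 142 and 141 CPM in stress, against 156, 153 and 163 CPM in non-stress. The difference was small, a log2 fold change of -0.17 (SE 0.04, 95% interval -0.26 to -0.07, edgeR adjusted p = 0.344; DESeq2 adjusted p = 0.0722). Non-stress 1 stood between the other non-stress libraries here, and against it alone the log2 fold change was -0.15 (adjusted p = 0.215).

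Scn3a, the alpha subunit known from the embryonic and neonatal brain, had 26.8, 29.1 and 27.0 CPM in stress and 28.3, 20.1 and 21.4 CPM in non-stress. Non-stress 1 lay among the stress values and non-stress 2 and 3 below them. The log2 fold change was 0.25 (SE 0.11, 95% interval -0.01 to 0.51, edgeR adjusted p = 0.424). Its size was set by the non-stress library left out: 0.41 without non-stress 1 (adjusted p = 0.0101), 0.16 without non-stress 2 (adjusted p = 0.733), and -0.03 against non-stress 1 alone (adjusted p = 0.949).

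Scn1a, the alpha subunit on which fast-spiking interneurons depend most, had 119, 121 and 117 CPM in stress and 128, 113 and 129 CPM in non-stress. Scn2a, the alpha subunit of the excitatory neuron's axon and the most abundant member, had 207, 208 and 209 CPM in stress and 213, 179 and 208 CPM in non-stress. In both genes the stress values lay inside the non-stress range, whose low end was non-stress 2. The 95% interval of the log2 fold change ran from -0.17 to 0.07 for Scn1a (-0.05, SE 0.05, edgeR adjusted p = 0.721) and from -0.08 to 0.20 for Scn2a (0.06, SE 0.06, adjusted p = 0.711). Both values depended on the libraries and the processing. For Scn1a the value was -0.03 without non-stress 1, -0.11 without non-stress 2, -0.02 without non-stress 3, -0.10 against non-stress 1 alone and -0.09 with a GC and length trend removed (adjusted p between 0.391 and 0.913). For Scn2a it was 0.11, -0.01, 0.09, -0.03 and 0.02 in the same order (adjusted p between 0.328 and 0.963). Changes inside the intervals above could not be told from the spread.

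**Figure D2:**
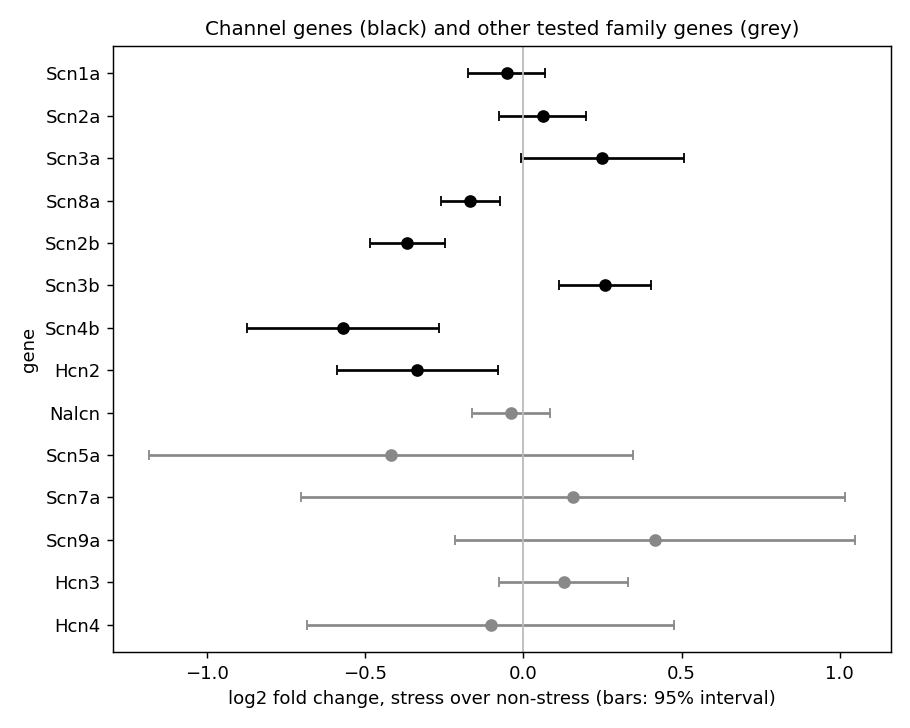
Log2 fold change of stress over non-stress (x axis) with its 95% interval for the 8 members (black) and 6 other tested genes of the sodium, sodium leak and HCN channel families (grey). Scn8a, Scn2b, Scn4b and Hcn2 lie below 0 and Scn3b above 0 with intervals that leave out 0, none past the threshold after adjustment.

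The median log2 fold change was 0.00 over the 4 alpha subunits, with 2 below 0, and -0.37 over the 3 beta subunits, with 2 below 0. With 3 genes the beta median is the value of the middle gene, here Scn2b. The median over all tested genes was 0.00. Against non-stress 1 alone the medians were -0.06 for the alpha and -0.24 for the beta subunits. That beta value was the one of Scn4b, with Scn2b at -0.37. Relative to each gene's mean over all libraries, the median beta subunit stood at -0.19, -0.15 and -0.18 in stress and at -0.03, 0.26 and 0.10 in non-stress on the log2 scale. The median alpha subunit stood at 0.00, 0.01 and 0.00 in stress and at 0.08, -0.14 and 0.06 in non-stress. For the beta subunits every stress median was below every non-stress median. The middle gene was Scn4b in stress 2, Scn3b in non-stress 1 and Scn2b in the other libraries. These medians therefore mostly repeat Scn2b and show no shared direction, since Scn3b was higher in stress. For the alpha subunits the stress values lay between those of non-stress 2 and the other non-stress libraries.

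Summed per kb of transcript, the alpha subunits held 52.1, 53.1 and 52.6 CPM per kb in stress and 55.8, 48.9 and 55.2 CPM per kb in non-stress. The beta members held 24.4, 24.3 and 24.2 CPM per kb in stress and 27.3, 27.6 and 26.4 CPM per kb in non-stress. The beta to alpha ratio was 0.469, 0.457 and 0.461 in stress, and 0.489, 0.565 and 0.479 in non-stress. The groups did not overlap in this ratio, although stress 1 and non-stress 3 differed by little. The sum hides opposite directions, since Scn3b was higher and Scn2b and Scn4b were lower in stress.

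By level per kb, Scn2a led in stress with a mean of 23.3 ± 0.117 CPM per kb, followed by Hcn2 (14.9 ± 0.719), Scn1a (14.2 ± 0.206), Scn8a (12.2 ± 0.238), Scn2b (11.99 ± 0.0657), Scn3b (10.3 ± 0.355), Scn3a (2.89 ± 0.135) and Scn4b (2.05 ± 0.206; SD, n = 3). In non-stress the order was Scn2a (22.4 ± 2.08), Hcn2 (18.8 ± 3.49), Scn2b (15.5 ± 0.808), Scn1a (14.7 ± 1.07), Scn8a (13.8 ± 0.461), Scn3b (8.60 ± 0.650), Scn4b (3.05 ± 0.552) and Scn3a (2.43 ± 0.459). In stress, the neighbours in this order that did not differ beyond their SDs were Hcn2 and Scn1a, and Scn8a and Scn2b. In non-stress they were Scn2a and Hcn2, Hcn2 and Scn2b, Scn2b and Scn1a, Scn1a and Scn8a, and Scn4b and Scn3a. Scn2b was above Scn1a in non-stress 1 and 2 and below it in every other library. These levels assume that the longest annotated transcript is the one expressed.

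Hcn2, an HCN subunit with a strong response to cyclic AMP, had 46.5, 50.2 and 46.0 CPM in stress and 56.4, 72.5 and 51.1 CPM in non-stress. The groups came within 1 CPM of each other, and non-stress 2 stood far above the rest. The log2 fold change was -0.33 (SE 0.11, 95% interval -0.59 to -0.08, edgeR adjusted p = 0.351). It was -0.17 without non-stress 2 (adjusted p = 0.565), -0.24 against non-stress 1 alone (adjusted p = 0.196) and -0.17 after removal of a smooth trend on GC content and length from every library (adjusted p = 0.432). The Hcn2 transcript is 65.4% G and C, above 99.6% of the tested genes with a value.

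**Figure D3:**
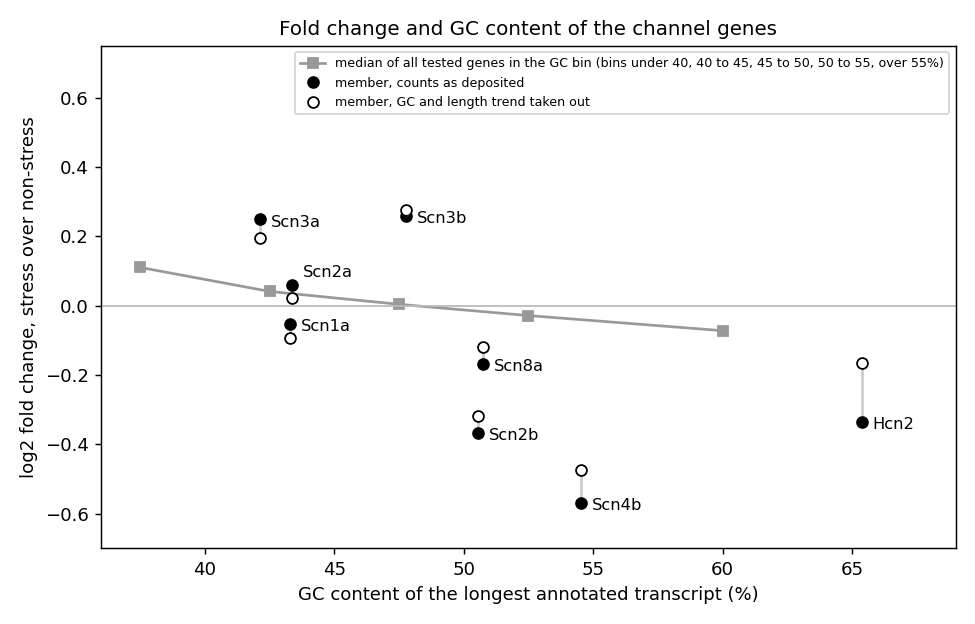
Log2 fold change of stress over non-stress (y axis) against the GC content of the longest transcript (x axis) for the 8 members, as deposited (filled) and corrected for a GC and length trend (open), and medians of all tested genes in 5 GC bins (grey squares). The medians run from 0.11 below 40% to -0.07 above 55%, and Hcn2 is the member that moves most, while Scn2b, Scn4b and Scn3b keep most of their size.

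GC content moved with the contrast over all genes and was checked for that reason. Over tested genes, the median log2 fold change was 0.11 in 1003 genes below 40% GC and -0.07 in 3872 genes at or above 55%. In those GC-rich genes the median deviation from the gene's mean was -0.05 to -0.01 in stress, -0.01 in non-stress 1, 0.11 in non-stress 2 and 0.00 in non-stress 3. Scn1a, Scn2a and Scn3a were 42.1% to 43.4% G and C, Scn3b 47.8%, Scn2b 50.5%, Scn8a 50.8% and Scn4b 54.5%, where the median tested gene was 49.7%. With the trend taken out, log2 fold changes were -0.32 for Scn2b (adjusted p = 0.0847), 0.28 for Scn3b (0.276), -0.48 for Scn4b (0.289), -0.12 for Scn8a (0.302) and 0.20 for Scn3a (0.455). None passed, as for all but 0.0208% of tested genes.

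Of 11 other genes of these families, 8 had enough counts to be tested and none passed edgeR's threshold, with a median log2 fold change of 0.04. The log2 fold changes of Hcn3, another HCN subunit gene, and Scn9a, an alpha subunit gene best known from sensory neurons, were 0.13 and 0.42 (adjusted p = 0.587 and 0.567). Scn4a, Scn10a and Scn11a, the channels of muscle and sensory neurons, had at most 10 counts in any library and were not tested.

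Genes for proteins that bind or anchor these channels were taken as a list of 12, all tested, of which none passed; 5 lay above 0 and 7 below, with a median of -0.01. Pex5l, the auxiliary subunit that controls HCN trafficking and cyclic AMP response, had 104, 108 and 114 CPM in stress and 124, 119 and 120 CPM in non-stress, without overlap. Its log2 fold change was -0.16 (SE 0.05, adjusted p = 0.344). Log2 fold changes were -0.24 for Sptbn4, the spectrin of the axon initial segment, -0.32 for Fgf11 and 0.07 for Fgf13. Fgf11 and Fgf13 encode intracellular factors that bind the tail of the alpha subunit. The edgeR adjusted p of Sptbn4, Fgf11 and Fgf13 was between 0.405 and 0.467. Of them Fgf13 alone was without overlap. Non-stress 1 lay among the stress values for Fgf11 (8.17 CPM), as did non-stress 3 for Sptbn4 (34.5 CPM). Ank3, which encodes the scaffold ankyrin-G that holds sodium channels at the initial segment, had 114, 119.6 and 112 CPM in stress and 116, 106 and 126 CPM in non-stress, a log2 fold change of -0.01 (95% interval -0.14 to 0.13).

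The genes whose pattern over the 6 libraries was most like that of Scn2b were Junb (an AP-1 transcription factor subunit), Aatk (a kinase), Nab2 (a corepressor of Egr factors), Nat8l (the enzyme that makes N-acetylaspartate) and Dnajb5 (a cochaperone). Their log2 CPM, each relative to the gene's mean, differed from those of Scn2b by a root mean square of 0.055, 0.066, 0.067, 0.069 and 0.069, where the median over 5899 candidate genes was 0.19. Junb had 89.0, 89.1 and 88.4 CPM in stress and 108, 109 and 105 CPM in non-stress. Because it was picked for likeness to Scn2b, it too varied little among stress libraries, and non-stress 1 stood with the other non-stress libraries. By the same measure Hcn2 ranked 322, Scn8a 358, Scn1a 2760, Scn2a 5109 and Scn3b 5745 among the candidates. Scn4b and Scn3a were below the minimum level for candidates and were not ranked.

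None of the tested neighbouring genes passed. The nearest tested genes on each side of the Scn2b and Scn4b pair, Jaml and Tmprss4, stayed under 1 CPM in every library. Jaml was at -0.70 on the log2 fold change scale (adjusted p = 0.435), while Tmprss4 was at 0.76 (adjusted p = 0.368). Around the Scn1a, Scn2a and Scn3a cluster all 8 neighbours lay above 0, as did 9583 of all 19227 tested genes. The edgeR adjusted p of these neighbours was between 0.385 and 0.894. The flanking genes Gm34739 and Gm13629 showed 0.17 and 0.25. The 6 genes inside the cluster ran from 0.05 for Csrnp3, the most highly counted of them, to 0.70 for Gm34833. The latter was under 1 CPM in every library.

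Markers of cells in which these channels are abundant were counted because tissue composition moves bulk values. Of 8 striatal projection neuron markers 7 were tested and none passed; their summed level was 198 to 213 CPM in stress and 197 to 219 CPM in non-stress. None was at 0 in all libraries. Drd2, a dopamine receptor, had 0.601, 0.736 and 0.468 CPM in stress and 1.18, 0.974 and 1.10 CPM in non-stress (log2 fold change -0.85, adjusted p = 0.344). Drd1, Ppp1r1b, Rgs9, Pde10a and Adora2a had log2 fold changes between -0.12 and 0.11, and Six3 was too low to be tested. The part of striatal tissue in the Scn4b result was not tested.

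Markers of parvalbumin interneurons, which are rich in Scn1a and Scn4b, summed to 98.7 to 118 CPM in stress and 109 to 123 CPM in non-stress, and none of 3 passed. Syt2, a fast synaptotagmin of these cells, showed -0.27 (log2 fold change, adjusted p = 0.351) without overlap, and Pvalb itself -0.05 (adjusted p = 0.830). Cox6a2, a mitochondrial enzyme subunit gene, lay in the opposite direction, also without overlap, at 5.17, 5.32 and 4.70 CPM in stress and 4.43, 4.64 and 4.43 CPM in non-stress (0.17, adjusted p = 0.554). Of 7 general GABAergic markers none passed, 4 lay below 0 and 3 above, and the median log2 fold change was -0.11. The 4 below 0 had unadjusted p under 0.05: Gad1 (-0.11), which encodes an enzyme of GABA synthesis, the vesicular GABA transporter gene Slc32a1 (-0.49), and the transcription factor genes Dlx1 (-0.22) and Lhx6 (-0.18), with adjusted p between 0.351 and 0.402. Over all tested genes, 6.27% were lower at that unadjusted p and 9.43% were lower without overlap. Of the 4 markers, all but Slc32a1 were below every non-stress library in every stress library. Non-stress 1 was the closest and lay just above the highest stress library. Dlx1 had 15.08 CPM there against 15.05 in stress 2, Lhx6 24.85 against 24.70 in stress 1, and Gad1 325 against 321 in stress 1. Sst, which encodes somatostatin, was higher without overlap (0.27, adjusted p = 0.344), while Gad2 (0.14) and Vip (0.11) overlapped. The summed level, 874 to 892 CPM in stress and 819 to 882 CPM in non-stress, is mostly that of Gad1 and Sst. Of 6 excitatory markers none passed, with 3378 to 3580 CPM in stress and 3436 to 3716 CPM in non-stress. Of these 5 lay below 0 with overlap, Slc17a7 the lowest at -0.07, and the list's median was -0.03. Neurod6, a transcription factor gene of excitatory neurons, was the 1 above 0 (0.19, adjusted p = 0.344), without overlap. The part of these cells in the members' values was not tested.

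Glial and vascular markers overlapped between the groups in summed level. The sums were 2233 to 2291 CPM in stress and 2198 to 2410 CPM in non-stress for astrocytes, 6639 to 7180 against 6038 to 7495 CPM for oligodendrocytes, 41.8 to 45.8 against 43.3 to 45.2 CPM for their precursors, 266 to 283 against 277 to 279 CPM for microglia and 194 to 201 against 195 to 208 CPM for endothelium. For astrocytes, precursors, microglia and endothelium, the markers of smallest p were Aldh1l1 (log2 fold change -0.17), Cspg4 (0.18), Csf1r (-0.12) and Slco1a4 (-0.08), with adjusted p between 0.386 and 0.512. Each of them was without overlap, as were 17.9% of all tested genes. Each list held markers in both directions. Of the astrocyte markers 2 lay above 0 and 4 below, and of the precursor markers 2 above and 1 below. For microglia the counts were 3 above and 3 below, and for endothelium 2 above and 3 below. Gfap, an astrocyte filament gene chosen after its values were seen, had 13.2, 12.5 and 14.5 CPM in stress and 26.6, 5.32 and 4.74 CPM in non-stress, the widest gap between non-stress 1 and the other non-stress libraries among these markers. The summed level of pituitary hormone transcripts did not overlap between the groups, at 3.45 to 13.8 CPM in stress and 1.14 to 2.81 CPM in non-stress. Gh led the sum in stress 1 and 2, with 8.10, 9.21 and 0.668 CPM in stress and 0.209, 0.127 and 0 CPM in non-stress. Not every one of these transcripts was without overlap by itself. Their part in the members' values was not tested.

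**Figure D4:**
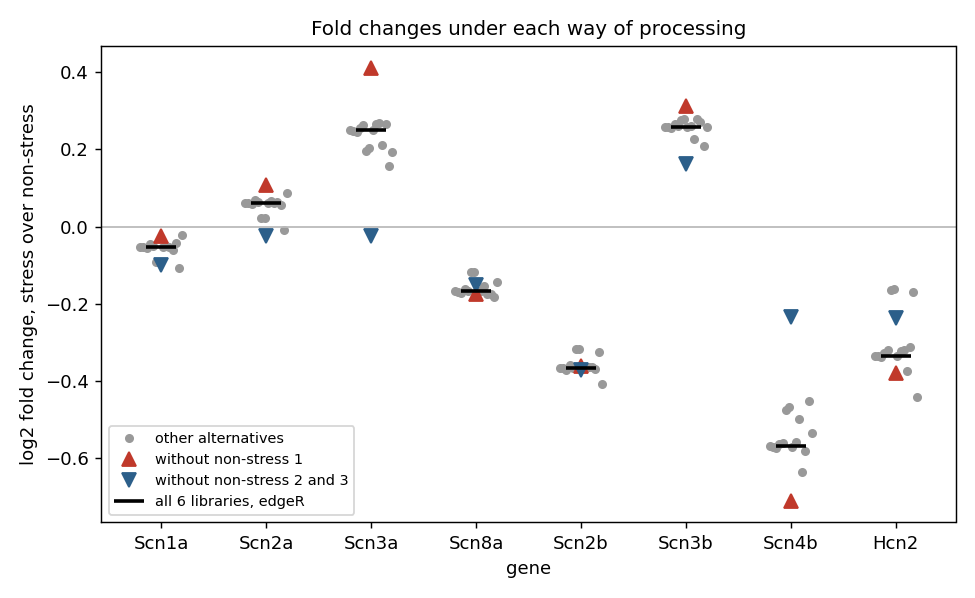
Log2 fold change of stress over non-stress (y axis) for each member (x axis) with all 6 libraries (black bar), without non-stress 1 (red triangle), without non-stress 2 and 3 (blue triangle) and under the other alternatives (grey). Scn2b stays between -0.41 and -0.32, while Scn3a runs from -0.03 to 0.41 and Scn4b from -0.71 to -0.24.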

How the data were processed

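RNA was measured in 3 stress and 3 non-stress libraries. Per the labels' protocols, sequencing libraries combined SMARTer low-input cDNA synthesis and TruSeq construction. Per the submitters' processing notes, Trimmomatic 0.38, HISAT2 and StringTie were used with GRCm38 (mm10); the sources used here do not give the counting step, multi-mapping or strand settings. The authors deposited whole-number counts per gene, not normalised, which were used unchanged. Members were matched by symbol.

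Genes kept by filterByExpr (19227, holding 99.9% of each library's counts) were tested with edgeR 4.0.16 (R 4.3.3) by the quasi-likelihood test, two-sided, group as the single term, TMM factors (0.996 to 1.00) and Benjamini-Hochberg adjustment over all tested genes at 0.05. The SE is the log2 fold change over the square root of F. CPM use library totals; log2 CPM had a prior count of 2. Lengths and GC content come from the longest GENCODE M21 transcript (90.1% of tested genes). Alternatives used DESeq2 1.42.0 and limma 3.58.1. The tests were tried on simulated data.

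The members and gene lists were chosen with earlier results of these data known. Named are all members, the 4 companion genes per list and the marker per cell type of smallest p, every striatal marker, the 5 genes most like Scn2b (mean of at least 5 log2 CPM, no Gm or Rik symbols) and the nearest tested neighbours; a few genes that this rule covers are not reported here. The further GABAergic, parvalbumin and excitatory markers, and the genes inside the chromosome 2 cluster, were named after their values were seen. The fit without non-stress 2 and 3 was added after seeing the data.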

Additional observations from a re-analysis of the deposited data

How the results depend on the processing

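Counts of calls depended on the tool and on the non-stress libraries. With all libraries edgeR called 0 members and 1 of all genes; the genes called numbered 127 with DESeq2 (2 members, Scn2b and Scn4b), 2 with limma-voom, 4 with the GC and length trend taken out, 1 to 756 when each library was left out in turn (0 to 4 members, the highest without non-stress 1, of 3.85% of genes called) and 63 without non-stress 2 and 3 (1 member, Scn2b; the lone non-stress library is then assumed to vary like the stress libraries). With the replicate number as a block 2 genes and 0 members were called, and 5 genes and 0 members with block and trend together; same-numbered libraries deviated together at correlations of 0.02, -0.03 and 0.02, so the numbers were not taken as pairs. The log2 fold change of Scn2a turned to -0.0085 without non-stress 2 (range -0.0085 to 0.11 over libraries left out). Without non-stress 2 and 3 it was -0.025, and Scn3a was also at -0.025. The causes of these shifts were not tested. The beta median without non-stress 2 and 3 was -0.24, because Scn4b was then the middle gene, while Scn2b stayed at -0.37. The 6 members other than Scn2a and Scn3a kept their direction in all 16 alternatives, with Scn2b between -0.41 and -0.32. Other size factors or filters changed no call of a member, and the median of all genes stayed between -0.0042 and 0.0044. Depth was ample for the members (at least 380 counts in each library), and n = 3 limits precision.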
